A study of Mus musculus with 12 samples.

Results

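Birth was bracketed by 2 of the 4 time-points of a bulk RNA-seq series of mouse lung: E18.5 (embryonic day), the last fetal stage sampled, and P5 (postnatal day). Members were chosen by sample title, the 3 libraries of E18.5 lung against the 3 of P5 lung, which made 6 of the 12 libraries of the series, the others being E15.5 and P8. The tissue was the entire lung of C57BL/6 animals, females and males, with no transgene, deletion or treatment, and the replicates of each stage came from a single litter, so that litter and stage cannot be told apart and p-values measure the spread between littermates only. RNA-seq reads were counted per gene by the authors and are given below as CPM, the counts scaled to a common total of mapped reads. CPM is not divided by transcript length, so levels below are compared between stages for the same gene and not between genes. Depth on the genes kept ran from 42334697 to 47990099 reads at E18.5 and from 42180691 to 53221643 reads at P5.

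Before birth the lung is a fluid-secreting organ with little blood flow, and gas exchange is left to the placenta. At birth the fluid is absorbed, surfactant from alveolar type 2 (AT2) cells lowers the surface tension of the new air spaces, the pulmonary vessels dilate, oxygen tension rises, and the mucosa meets microbes and inhaled particles. In the mouse the days after birth lead into alveologenesis, when septa carrying elastic fibres and capillaries divide the saccules.

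The lung markers were present in every library. Nkx2-1, the transcription factor of lung epithelium, averaged 216 ± 23 CPM (SD, n = 3) at E18.5 and 140 ± 4.54 at P5, and Foxf1 and Tbx4 of the mesenchyme averaged 155 ± 9.14 and 251 ± 6.72 CPM at E18.5 and 250 ± 18.9 and 243 ± 16.7 CPM at P5. Sftpb, Sftpc, Hopx, Cdh5 and Tcf21 were also detected in each library, and their values are not repeated here beyond Sftpb and Hopx.

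Markers of brown fat and skeletal muscle, tissues outside the lung, stood out in some P5 libraries. The summed level of 4 brown fat markers (Ucp1, Cidea, Adipoq, Plin1) was 0.205 to 0.275 CPM at E18.5 and 0.771, 21.9 and 131.2 CPM in P5 replicates 1, 2 and 3. The skeletal muscle sum was 5.48 to 7.14 CPM at E18.5 and 7.63, 13 and 171 CPM in P5 replicates 1, 2 and 3, with Acta1 at 69.2 CPM in replicate 3 and under 0.4 CPM in the other 5 libraries. Of 7 skeletal muscle markers tested, 3 were called with all libraries, 0 without P5 replicate 3 and 1 without E18.5 replicate 2 or 3. The heart muscle sum was 66.1 to 104 CPM at E18.5 and 135, 293 and 195 CPM at P5. It was thus detected in every library, and its source was not tested. P5 replicate 1 instead held the highest erythroid sum, 20150 CPM against 12350 and 13530 CPM in replicates 2 and 3. Cym, the stomach milk-clotting enzyme, was at 38.9, 34.1 and 57.0 CPM at E18.5 and at 0.305, 0.454 and 0.312 CPM at P5. Of the 6 stomach and oesophagus markers tested, Cym was the 1 called lower, while 2 were called higher. Whether stomach tissue was present at E18.5 was not tested. The plot of these sums by library shows which libraries carried them, and the genes below that moved with them are named as such.

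**Figure D1:**
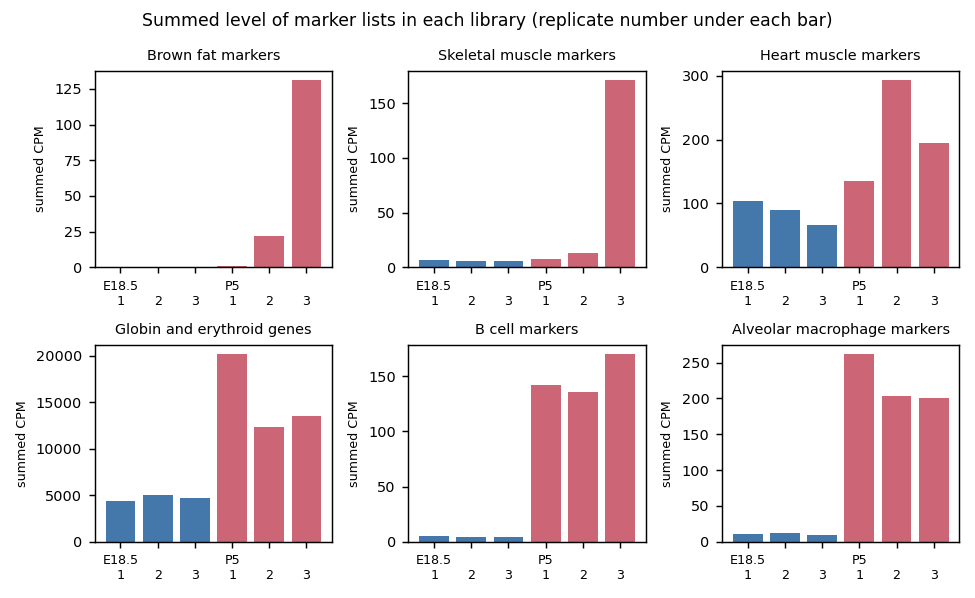
Summed level in CPM (linear axis from 0, own scale in each panel) of brown fat, skeletal muscle, heart muscle, erythroid, B cell and alveolar macrophage genes, with 1 bar for each of the 6 libraries. The brown fat and skeletal muscle bars of P5 replicate 3 (131.2 and 171 CPM) stand above those of the other P5 libraries, while the B cell and macrophage bars are high in all 3 P5 libraries.

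Of 15994 genes tested, 4289 were called, that is, had a false discovery rate (FDR, Benjamini-Hochberg over all genes tested) under 0.05 in edgeR's quasi-likelihood test and an absolute log2 fold change above 1. They made up 26.8% of the genes tested, with 2795 higher at P5 (17.5%) and 1494 lower (9.34%). The median absolute log2 fold change was 2.04 among the rises and 1.39 among the falls, and 213 rises but only 16 falls went beyond 5 on the log2 scale. The 2 groups of libraries did not overlap for 77.1% of all genes tested, so that a lack of overlap was the common state of a gene in this comparison. In bulk tissue, fewer cells of a type and less RNA per cell cannot be told apart.

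Most of these calls were also seen over the wider interval from E15.5 to P8, whose 6 libraries are not among those compared here, although all 12 share the fit. Of the 2795 rises, 2550 (91.2%) were also called higher at P8 than at E15.5, which is 76.4% of the 3338 genes higher there (20.9% of genes tested). Of the 1494 falls, 1212 (81.1%) were also called lower, which is 66.0% of the 1836 genes lower there (11.5% of genes tested). Only 2 of the rises and 4 of the falls were called in the opposite direction.

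The rises and falls were then read by function, over 56 gene lists and 30 gene families. The shares to read each list against are 17.5% higher and 9.34% lower over all genes tested, with a median log2 fold change of -0.002. Lists of genes nearly silent before birth pass the filter on low values only through P5, so their shares of rises are descriptions and are given no test.

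**Figure D2:**
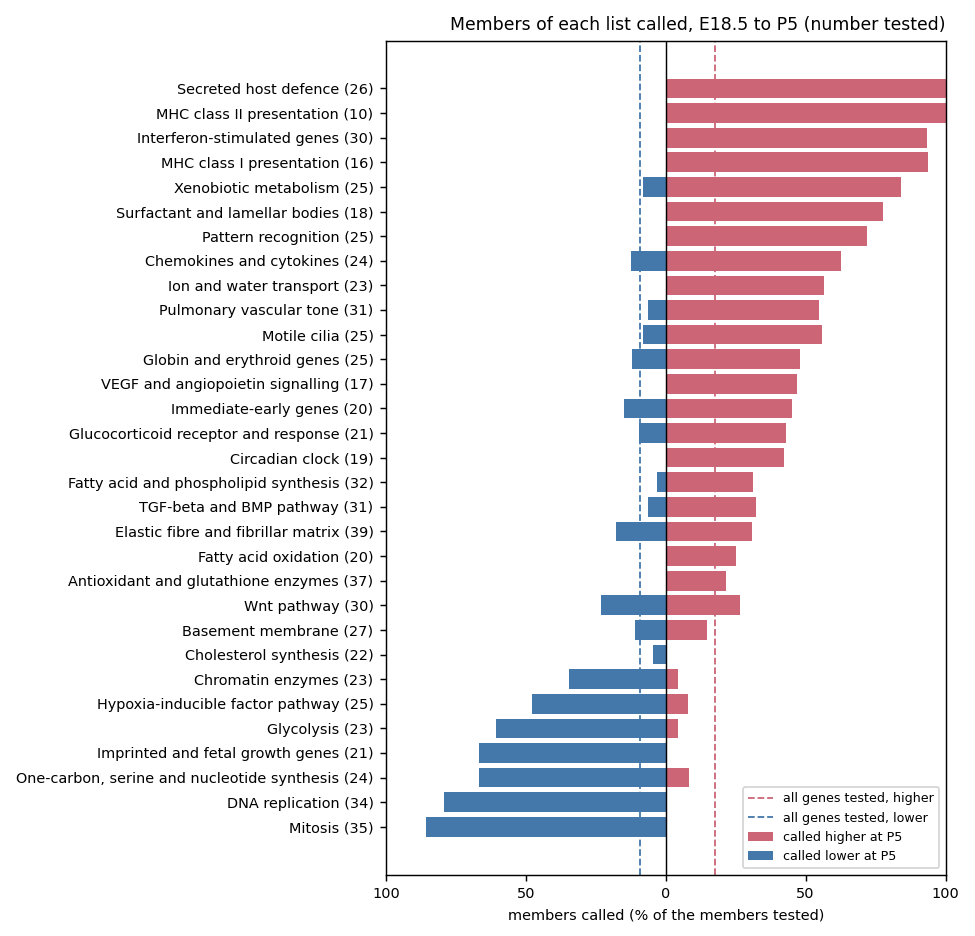
Percent of the tested members of the larger function lists that were called higher (red, to the right) or lower (blue, to the left) at P5, with the number tested beside each name. Dashed lines mark the shares over all genes tested, 17.5% higher and 9.34% lower. Host defence, MHC and interferon lists lie at the top and DNA replication and mitosis at the bottom.

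The machinery of cell division fell. Of 34 DNA replication genes 27 were called lower and 0 higher, and of 35 mitosis genes 30 were lower and 0 higher, with median log2 fold changes of -1.27 and -1.29. Every member of both lists was lower at P5 at an FDR under 0.05, which was so for 35.7% of all genes tested. The fall ran through each step: 14 of 16 origin and helicase genes, 9 of 12 polymerase and clamp genes, 4 of 6 genes of deoxynucleotide supply, all 10 mitotic cyclins and kinases, and 6 of 7 kinetochore genes.

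Mcm10, which loads polymerase onto the replicative helicase, was at 47.1, 48.0 and 58.3 CPM in the 3 E18.5 libraries and at 10.4, 12.5 and 11.9 CPM in the 3 P5 libraries (log2 fold change -2.06 ± 0.11, SE, FDR 1.5e-08). Cdc6, the origin licensing factor, fell from 43.9 ± 5.18 to 11.8 ± 0.567 CPM (log2 fold change -1.8). Bub1, a kinase of the spindle checkpoint, was at 95.4, 102 and 120 CPM before birth and at 27.7, 31.7 and 30.0 CPM after it (log2 fold change -1.74 ± 0.082, FDR 4.8e-09), and Ncapg of condensin fell from 73.8 ± 4.05 to 21.2 ± 2.86 CPM. The sliding clamp Pcna stayed under the fold cutoff, at 240 ± 24.8 and 141 ± 11.8 CPM (log2 fold change -0.68, FDR 5.9e-06). All of these genes were still detected in each P5 library. Chaf1a and Ube2c also fell (-1.59 and -1.67), but 52.5% and 22.8% of their exonic bases are shared with other genes, so their reads are less certain.

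Promoters of these genes were searched for the E2F-type letters TTTCGCGC and TTTGGCGC, on both strands, in the RefSeq window from 250 bases before to 50 bases after the start (build GRCm38.p6). E2F factors drive S-phase genes. The 3 promoters below belong to the called replication genes with the largest falls among those that hold TTTCGCGC before the start. They are not printed in order of fall. Genes that fell further, among them Mcm10, Cdc6 and Chaf1a, were passed over because no such match was found for them. Capitals mark TTTCGCGC, or GCGCGAAA where it lies on the other strand.
Orc1, chr4:108579403-108579453, plus strand: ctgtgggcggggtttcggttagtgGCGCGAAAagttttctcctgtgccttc
Mcm6, chr1:128359780-128359835, minus strand: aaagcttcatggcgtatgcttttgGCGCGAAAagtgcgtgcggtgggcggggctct
Mcm5, chr8:75109332-75109387, plus strand: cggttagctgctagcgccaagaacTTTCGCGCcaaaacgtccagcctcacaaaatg

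TTTCGCGC was found in 6 of 28 DNA replication promoters and 1 of 29 mitosis promoters, against 0.679% of the 11627 promoters of genes tested. TTTGGCGC, which overlaps it in Mcm5 and Mcm6, was found in 5 of 28 and 0 of 29, against 1.03%. CCAAT was common everywhere, in 18 of 28 replication and 22 of 29 mitosis promoters and in 42.2% of all. Orc1, Mcm6 and Mcm5 fell by 1.4, 1.33 and 1.44 on the log2 scale. A match of letters is a description of the window and was not tested as a binding site.

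The brakes of the cycle did not move as 1 group: 2 of 20 members tested rose and 4 fell. Cdkn2b, the inhibitor p15, was at 2.11, 2.20 and 0.952 CPM at E18.5 and at 33.5, 35 and 33.3 CPM at P5 (log2 fold change 4.36 ± 0.27, FDR 3.0e-08), and Cdkn1a (p21) rose from 14 ± 5.57 to 39.9 ± 0.656 CPM. Cdkn1c (p57), an imprinted inhibitor that restrains fetal growth, went the other way, from 188 ± 4.81 to 48.8 ± 4.62 CPM (log2 fold change -1.86), with 30.7% of its exonic bases shared with another gene. The E2F repressors E2f7 and E2f8 fell (-1.5 and -1.11) together with E2f3 (-1.07). Cyclins D1 and D2, which carry growth signals into the cycle, were at log2 fold changes of -0.08 and 0.02 (Ccnd1 and Ccnd2, FDR 0.43 and 0.78).

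Imprinted genes and other genes of fetal growth gave some of the largest falls, with 14 of 21 called lower, 0 higher and a median log2 fold change of -1.4. H19, a non-coding RNA of the imprinted cluster it shares with the growth factor gene Igf2 (chromosome 7, 142575529 to 142578143 for H19 and 142650766 to 142666816 for Igf2, GRCm38), was at 3194, 2991 and 2680 CPM at E18.5 and at 266, 236 and 288 CPM at P5 (log2 fold change -3.4 ± 0.32, FDR 1.2e-06). Igf2 fell from 1435 ± 108 to 99.0 ± 6.88 CPM (log2 fold change -3.77 ± 0.27, FDR 1.1e-07), with 64.5% of its exonic bases shared with an overlapping gene model and the antisense Igf2os. Dlk1, a Notch-like growth regulator, fell from 809 ± 39.9 to 118 ± 12.8 CPM, and Hmga2, a chromatin protein of fetal cells, from 46.4 ± 4.40 to 5.71 ± 0.433 CPM. All 4 were lower in every P5 library than in any E18.5 library. Sgce was the exception in sign, at a log2 fold change of 0.92 (FDR 4.7e-07).

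Of 16 genes of the insulin-like growth factor system, Igf2 included, 3 rose and 3 fell. Igf1 was at a log2 fold change of -0.57 and its receptor Igf1r at -0.09 (FDR 0.57), while Igf2r, which clears the Igf2 protein, fell from 420 ± 34.3 to 149 ± 6.50 CPM. The binding protein Igfbp7 rose from 36.7 ± 8.04 to 475 ± 19.2 CPM (log2 fold change 3.78 ± 0.16, FDR 2.6e-09). The proteases that free the ligand split: Pappa fell by 2.39 on the log2 scale and Pappa2 rose by 2.2.

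Of 23 genes of chromatin enzymes and proteins, 8 fell, 1 rose and 14 were not called. The falls were 4 of 8 genes of DNA methylation, 2 of 11 Polycomb genes and 2 of 4 genes of high mobility group proteins. Uhrf1, which guides maintenance DNA methylation, fell from 210 ± 19.3 to 54.7 ± 1.64 CPM (log2 fold change -1.85 ± 0.15), and Hells, a remodeller that acts with it, from 96.8 ± 13.5 to 28.5 ± 3.05 CPM. Ezh2, the Polycomb methyltransferase of dividing cells, fell by 1.48 on the log2 scale, while Ezh1 of resting cells was at 0.36 (FDR 0.0028). The 1 rise, Cbx7 (1.01), was under the fold cutoff when the libraries were scaled by size alone, with the replicate number as a block, or without E18.5 replicate 2, P5 replicate 2 or P5 replicate 3.

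Synthesis of serine, one-carbon units and nucleotides fell as well, with 16 of 24 genes lower and 2 higher. Phgdh, the first enzyme of serine synthesis, was at 83.1, 89.8 and 95.7 CPM before birth and at 20.3, 18.2 and 21.2 CPM after it (log2 fold change -2.08 ± 0.19, FDR 7.3e-07). Shmt1, which moves the carbon from serine to folate, fell from 40.3 ± 7.02 to 11.8 ± 1.32 CPM, and Psat1, the second enzyme of serine synthesis, from 229 ± 12.1 to 71.9 ± 3.45 CPM. The 2 rises were Impdh1 of guanine nucleotide synthesis (1.57) and the glutamine transporter Slc1a5 (1.41).

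Glycolysis fell from uptake to export. Of 23 genes 14 were lower and 1 higher, with a median log2 fold change of -1.3, and all 3 transporters were among the falls. Slc2a1 (Glut1), the glucose carrier, was at 146, 95.0 and 112 CPM at E18.5 and at 11.6, 14.8 and 13.3 CPM at P5 (log2 fold change -3.07 ± 0.17, FDR 1.8e-08). Hk2, which traps glucose as its phosphate, fell from 59.4 ± 11.4 to 8.06 ± 0.110 CPM (-2.8), and Slc16a3, which exports lactate, from 77.3 ± 12.2 to 12 ± 0.213 CPM (-2.6). P5 values of these genes lay close together, whereas E18.5 replicate 2 was the lowest of its stage for each. The other hexokinase Hk1 was at 0.31 (FDR 0.0094), and Pfkfb4, a regulator of phosphofructokinase, rose (1.84). Several of these enzymes have near-identical processed copies, and reads placed at more than 1 site were not counted.

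The hypoxia-inducible factors (HIFs) switch genes on when oxygen is low, and their subunits moved apart. Hif1a was at 153 ± 2.09 CPM at E18.5 and 112 ± 3.66 at P5 (log2 fold change -0.37, FDR 1.6e-05). Epas1 (HIF-2α; chromosome 17, 86753700 to 86833410) was at 85.5, 83.7 and 64.9 CPM before birth and at 1010.5, 991 and 951 CPM after it (log2 fold change 3.74 ± 0.14, FDR 1.0e-09). Hif3a (chromosome 7, 17031507 to 17062427), a subunit that can restrain the others, went from 193, 181 and 136 CPM to 8.86, 8.07 and 9.78 CPM (log2 fold change -4.17 ± 0.16, FDR 1.2e-09). These were the widest rise and the widest fall of the 25 genes of the pathway.

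Among the 16 HIF targets listed, 10 fell and 1 rose. Ak4, a mitochondrial adenylate kinase, fell from 70.9 ± 4.37 to 11.4 ± 0.335 CPM (-2.55). Of the oxygen-sensing hydroxylases that mark HIF for destruction, Egln3 fell from 74.8 ± 27.0 to 17.1 ± 1.55 CPM (-2.05). The 1 target that rose was Vegfa, the growth factor of blood vessels, described with the vessels below. The core letters of a hypoxia response element, ACGTGC (both strands), stood in 8 of 23 glycolysis promoters and 13 of 22 HIF pathway promoters, against 9.11% of all. The 3 promoters below were picked from falling genes that hold the core before the start. The core is in capitals, and a further match in Slc16a3 is left in lower case.
Slc2a1, chr4:119108685-119108738, plus strand: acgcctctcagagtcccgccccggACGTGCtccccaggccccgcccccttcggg
Slc16a3, chr11:120949016-120949066, plus strand: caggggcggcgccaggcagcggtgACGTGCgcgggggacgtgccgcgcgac
Ak4, chr4:101419466-101419519, plus strand: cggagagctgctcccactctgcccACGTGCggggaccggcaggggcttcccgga

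Genes of the translation and respiration machinery changed mostly by less than the fold cutoff. Of 80 cytosolic ribosomal protein genes, 77 were lower at an FDR under 0.05 but only 4 passed the fold cutoff, with a median log2 fold change of -0.7. The 4 became 7 when libraries were scaled by size alone and 8 without P5 replicate 3. These genes have many processed copies, so their counts are uncertain. Mitochondrial ribosomal proteins had a median of -0.41 (57 of 78 lower at an FDR under 0.05, 1 past the fold cutoff, and that 1 lost without E18.5 replicate 2 or 3 or P5 replicate 1), and of 39 complex I subunits 8 reached an FDR under 0.05, all under the fold cutoff. Cox8b, a cytochrome oxidase isoform of muscle and brown fat, rose to 1.03, 2.75 and 11.5 CPM in P5 replicates 1, 2 and 3, in the order of the brown fat sum, and Cox6a2, a heart and muscle isoform, to 2.81, 4.79 and 3.94 CPM, in the order of the heart sum.

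Surfactant genes rose. Of 18 genes, 14 were higher and 0 lower, with a median log2 fold change of 2.42. Sftpb, whose protein spreads the surfactant film and is needed for the first breath, was at 117, 166 and 73.2 CPM at E18.5 and at 2423, 2168 and 2090 CPM at P5 (log2 fold change 4.32 ± 0.25, FDR 2.3e-08). Slc34a2, which recovers phosphate from surfactant lipid, rose from 17.8 ± 8.71 to 1361 ± 86.5 CPM (6.35 ± 0.34), and Sftpa1, a collectin that also binds microbes, from 26.0 ± 9.57 to 1374 ± 272 CPM (5.82). In all 3, E18.5 replicate 3 was the lowest library and replicate 2 the highest of its stage. The lamellar body transporter Abca3 rose less (1.93) than the lamellar membrane protein Lamp3 (4.28), and Prdx6, which breaks surfactant phospholipid down, was at 0.36 (FDR 0.003).

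Among genes of lipid supply, of 9 uptake and storage genes, 6 rose, as did 3 of 12 fatty acid synthesis genes and 1 of 6 phosphatidylcholine genes. Cd36, the fatty acid receptor, was at 24.3, 27.9 and 14.5 CPM before and 560, 548 and 596 CPM after birth (log2 fold change 4.76 ± 0.3, FDR 3.7e-08), and Lpl, which frees fatty acids from lipoproteins, rose from 31.8 ± 0.959 to 125 ± 16.2 CPM (2.07). Scd1, which desaturates stearate, rose from 17.6 ± 0.679 to 545 ± 84.8 CPM (5.05 ± 0.15), but Fasn, the fatty acid synthase, was at 0.36 (FDR 0.042) and Acly at 0.04 (FDR 0.53). Elovl6, an elongase, fell (-1.87). The 3 P5 libraries were alike for Cd36, Lpl and Scd1; by contrast Fabp4 was at 4.09, 19.5 and 94.8 CPM in P5 replicates 1, 2 and 3, in the order of the brown fat sum. Cholesterol synthesis had 0 of 22 genes higher and 1 lower. In fatty acid oxidation all 9 beta oxidation enzymes stayed under the fold cutoff, 2 of them at an FDR under 0.05, while Cpt1a, the gate of the mitochondrion, rose from 47.7 ± 3.02 to 174 ± 9.49 CPM (1.95).

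Of 23 genes of ion and water transport tested, 13 rose and 0 fell. These were 6 of 11 genes of sodium uptake, 1 of 5 of chloride secretion, 3 of 4 water channels and 3 of 3 control genes. The 3 subunits of the epithelial sodium channel moved together: Scnn1a from 8.76 ± 3.33 to 110 ± 9.91 CPM (3.74), Scnn1g from 15.7 ± 4.53 to 141 ± 11.6 CPM (3.26), and Scnn1b from 6.05 ± 0.369 to 47.2 ± 0.667 CPM (3.05). Sgk1, the hormone-responsive kinase that keeps the channel at the membrane, was at 14.7, 24.5 and 27.5 CPM at E18.5 and at 204, 164 and 137 CPM at P5 (log2 fold change 3.01 ± 0.26, FDR 4.9e-07). Aqp1, the water channel of capillary endothelium, rose from 101 ± 13.2 to 1025 ± 46.5 CPM (3.43). Of the chloride carriers, Cftr was at -0.07 (FDR 0.71) and Slc12a2 at -0.12 (FDR 0.27).

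Vessel genes changed unevenly. Of 31 genes of vascular tone, 17 rose and 2 fell. Hpgd, which inactivates prostaglandins passing through the lung, was at 10.2, 11.2 and 9.45 CPM at E18.5 and at 283, 306 and 310.5 CPM at P5 (log2 fold change 4.95 ± 0.13, FDR 1.3e-10). Ace, which makes angiotensin II on the endothelium, rose from 31.5 ± 6.55 to 411 ± 26.9 CPM (3.79), and Agt, the precursor of its substrate, rose as well (4.92). The angiotensin receptor Agtr2 fell (-1.59), as did the oxygen-sensitive potassium channel Kcna5, from 6.22 ± 1.94 to 1.05 ± 0.494 CPM (-2.49). The 4 genes of the nitric oxide arm were higher at an FDR under 0.05 but under the fold cutoff, with Nos3, the endothelial synthase, at 0.3 (FDR 0.017) and the cyclase subunits Gucy1a1 and Gucy1b1 at 0.96 and 0.95 (FDR 8.8e-07 and 2.2e-06). Genes on the opposite strand share 32.3% of the exonic bases of Nos3, so its reads are less certain.

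Of 17 VEGF and angiopoietin genes, 8 rose and 0 fell. Vegfa was at 135, 97.9 and 105 CPM before and 269.5, 331 and 320.0 CPM after birth (log2 fold change 1.53 ± 0.14, FDR 9.3e-07), and its receptor Kdr rose from 135 ± 8.82 to 312 ± 5.0 CPM (1.29). The ligand Vegfb was at -0.8 (FDR 2.4e-05). Of 13 Notch pathway genes, 4 rose and 9 were not called, with a median log2 fold change of 0.18. The ligand Dll4 rose by 1.55, the receptor Notch4 by 1.65 and the target Hey1 by 1.89, while Notch1 and Notch3 were at 0.04 and -0.04 (FDR 0.82 and 0.72).

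**Figure D3:**
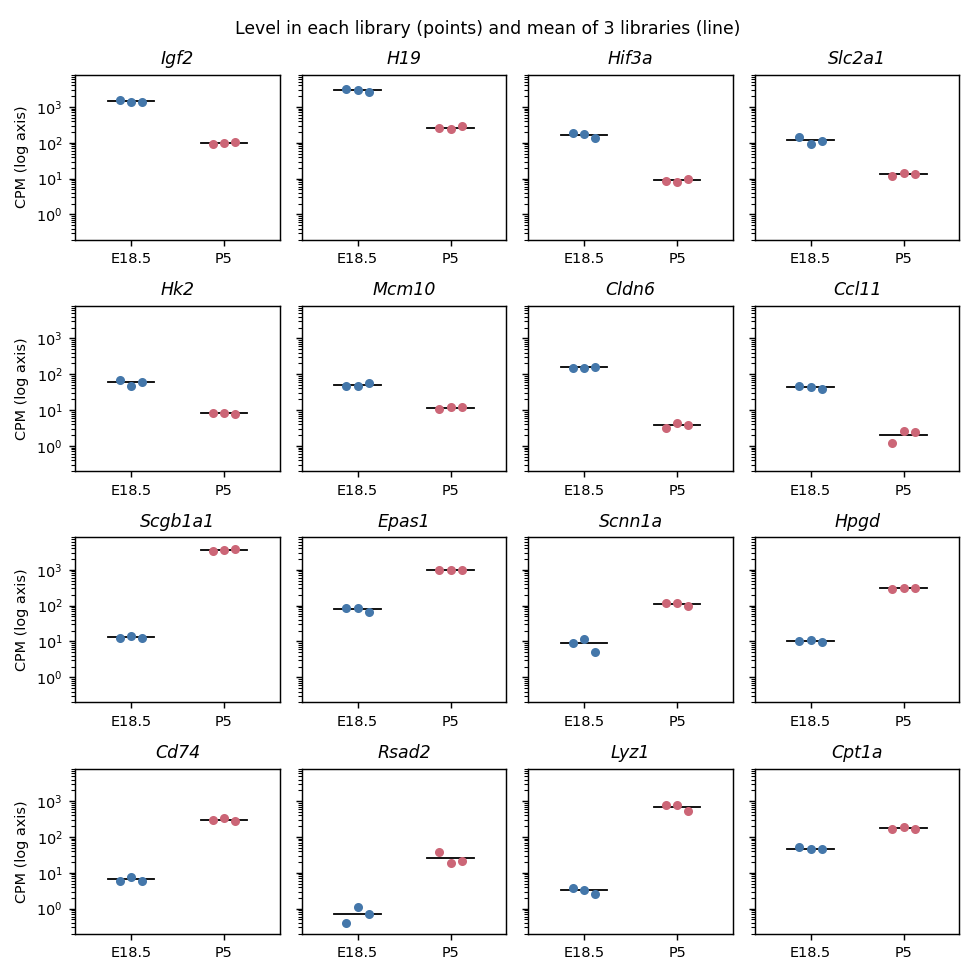
CPM (log axis, shared by all panels) of 16 genes named in the text in the 3 E18.5 and 3 P5 libraries, 1 point per library, with the mean as a line. Epas1 and Hif3a crossed in opposite directions, and the division, growth and glycolysis genes lay lower in every P5 library.

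Of 29 genes of secreted host defence, 26 passed the filter on low values and all of those 26 rose, with a median log2 fold change of 5.18. Lyz1, a lysozyme that cuts bacterial walls, was at 3.84, 3.33 and 2.53 CPM at E18.5 and at 796, 761 and 546 CPM at P5 (log2 fold change 7.85 ± 0.22, FDR 1.5e-10). Chil1, a chitinase-like protein, rose from 1.93 ± 0.522 to 371 ± 98.1 CPM (7.69 ± 0.29, FDR 1.2e-09). Scgb3a1, a secretoglobin of the larger airways, varied most at P5, at 8.82, 148 and 82.0 CPM, from 0.308 ± 0.0888 CPM at E18.5. Lyz1 and Chil1 were highest in P5 replicate 1 and Scgb3a1 lowest there.

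Antigen presentation rose. For MHC class II, which shows peptides to helper T cells, all 10 genes rose: H2-Aa from 1.19 ± 0.347 to 90.8 ± 3.01 CPM (6.34), H2-Eb1 from 1.03 ± 0.118 to 48.6 ± 1.73 CPM (5.64), Cd74, the chaperone of the class, from 6.52 ± 0.901 to 304 ± 31.8 CPM (5.63), and Ciita, its master regulator, from 0.331 ± 0.0791 to 8.74 ± 0.148 CPM (4.79). For MHC class I, 15 of 16 rose, with a median of 2.08, led by the regulator Nlrc5 (5.45), H2-T23 (3.0) and H2-K1 (2.9). H2-K1 was at 24.1, 30.2 and 19 CPM before and 183, 155 and 176 CPM after birth. Reads shared between the near-identical H2 genes were not counted.

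Interferon-stimulated genes rose too, with 28 of 30 tested higher and 0 lower. Rsad2 (viperin), which blocks viral RNA synthesis, was at 0.390, 1.09 and 0.696 CPM at E18.5 and at 37.3, 18.3 and 21.5 CPM at P5 (log2 fold change 5.24 ± 0.37, FDR 1.0e-07). Ifit1, a sensor of foreign RNA caps, rose from 0.158 ± 0.0709 to 3.94 ± 0.374 CPM (4.7), and Isg15, a ubiquitin-like modifier, from 0.356 ± 0.133 to 6.20 ± 1.68 CPM (4.2). Stat2 and Ifit2 did not pass the fold cutoff (0.72 and 0.52, FDR 2.8e-05 and 2.0e-05). The letters GAAANNGAAA on either strand, the core of the interferon-stimulated response element, stood in 15 of 23 promoters of the list and in 3 of 14 MHC class I promoters, against 3.76% of all. The 3 promoters below belong to leading genes that hold a match before the start. In each, 1 match is in capitals and any further match in lower case.
Rsad2, chr12:26456539-26456596, minus strand: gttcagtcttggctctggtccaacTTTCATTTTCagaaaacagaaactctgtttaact
Ifit1, chr19:34640761-34640818, plus strand: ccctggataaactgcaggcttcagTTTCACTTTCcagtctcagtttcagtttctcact
Isg15, chr4:156200863-156200920, minus strand: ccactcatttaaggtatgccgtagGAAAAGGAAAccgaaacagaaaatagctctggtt

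Of 25 genes of pattern recognition, 18 rose. All 10 Toll-like receptor genes listed were called higher, against 2 of 8 adaptors. Tlr4, the lipopolysaccharide receptor, rose from 2.58 ± 0.532 to 16.9 ± 0.570 CPM (2.8), and Clec7a, a receptor for fungal glucan, from 2.01 ± 0.532 to 40.9 ± 11.5 CPM (4.44), while Myd88, the shared adaptor, was at 0.76 and Ly96, the partner of Tlr4, at 0.35 (FDR 0.15). Chemokines split. Ccl6, a macrophage chemokine, rose from 2.26 ± 0.399 to 126 ± 49.1 CPM (5.9), and 15 of 24 genes tested rose in all. In the other direction Ccl11 (eotaxin), which attracts eosinophils, was at 48.1, 43.9 and 39.5 CPM before and 1.17, 2.64 and 2.38 CPM after birth (log2 fold change -4.34 ± 0.32, FDR 1.4e-07), and Ccl2 and Ccl7, which attract monocytes, fell by 2.5 and 1.66. Another 14 of the 38 chemokine and cytokine genes were under the filter on low values.

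Markers of immune cells moved with these lists in every P5 library. All 10 B cell markers, 14 alveolar macrophage markers and all 9 neutrophil markers tested (of 11) were called higher. The B cell sum went from between 4.29 and 4.8 CPM to between 136 and 170 CPM, the alveolar macrophage sum from between 8.83 and 11.7 to between 201 and 262 CPM, and the neutrophil sum from between 4.56 and 7.71 to between 77.0 and 95.2 CPM. Their part in the host defence, MHC, interferon and receptor results was not tested. The mast cell marker sum was 77.6 to 83.0 CPM at E18.5 and 207 to 208 CPM at P5. Of its members, the histamine enzyme Hdc rose from 3.76 ± 1.12 to 50.9 ± 3.12 CPM (3.85) and the receptor Kit was at 0.95 (FDR 1.6e-05).

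**Figure D4:**
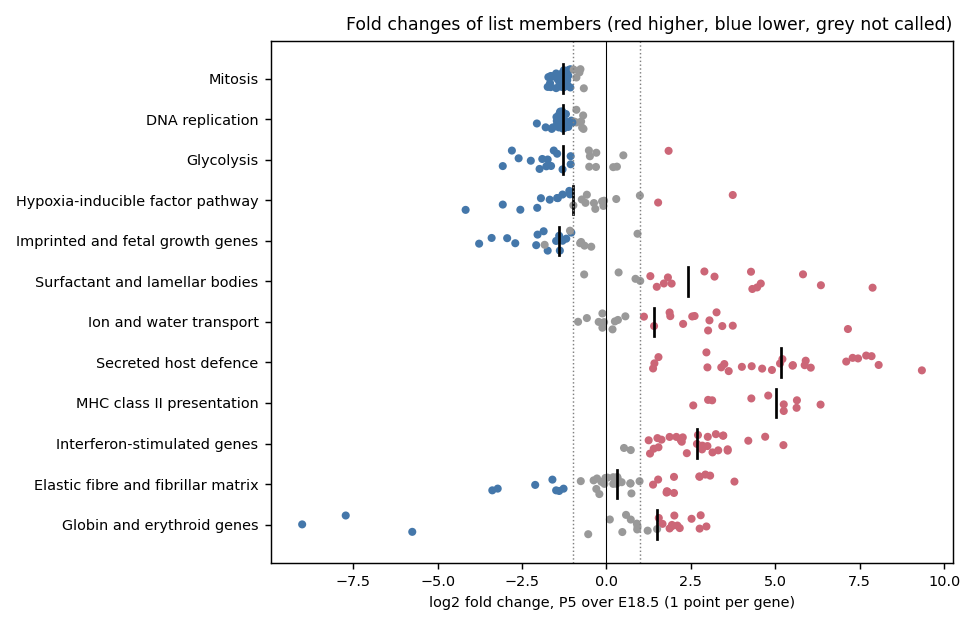
Log2 fold change, P5 minus E18.5, of every tested member (1 point per gene; red called higher, blue called lower, grey not called), for 12 of the lists, with a line at each list's median. The MHC class II and secreted host defence medians lie at 5.02 and 5.18, and DNA replication and mitosis at -1.27 and -1.29.

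Of 25 genes of motile cilia, 14 rose and 2 fell, and both falls, Mcidas (-1.54) and Ccno (-1.42), belong to the programme that multiplies centrioles in young ciliated cells. Tppp3, a tubulin-binding protein, was at 20.5, 22.3 and 19.2 CPM at E18.5 and at 156, 192 and 199.5 CPM at P5 (log2 fold change 3.22 ± 0.088, FDR 1.3e-10). Dnah9, an outer arm dynein, rose from 0.806 ± 0.302 to 6.71 ± 0.327 CPM (3.14). Foxj1, the master factor of these cilia, was at 42.0, 36.6 and 17.2 CPM before and 33.1, 40.0 and 34.8 CPM after birth (0.26, FDR 0.42), with overlapping groups. Among 29 cilia- and flagella-associated proteins 21 rose and 1 fell.

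Enzymes that handle foreign compounds rose, with 21 of 25 genes higher and 2 lower, including 9 of 10 cytochrome P450 genes listed. In the wider cytochrome P450 family taken by symbol, 18 of 30 genes rose, 1 fell and 11 were not called. The median log2 fold change of that family was 1.5. Cbr2, a carbonyl reductase abundant in mouse airway, rose from 15.6 ± 5.49 to 672 ± 73.7 CPM (5.51 ± 0.24, FDR 2.7e-09). Aldh1a7 and the carboxylesterase Ces1f fell (-1.31 and -3.09). Of the antioxidant enzymes, 3 of 19 superoxide and peroxide genes rose, among them Sod3, the extracellular superoxide dismutase, from 0.910 ± 0.104 to 31.3 ± 3.13 CPM (5.19), while Sod1 and Hmox1 were at 0.16 and 0.06 (FDR 0.017 and 0.55). Of 10 glutathione transferases listed there 5 rose, led by Gsta3 (5.44).

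The matrix was remodelled in both directions, with 12 of 39 elastic and fibrillar genes higher and 7 lower. Eln, elastin itself, was at 1037, 968 and 790 CPM before and 2297.5, 3045 and 2257 CPM after birth (log2 fold change 1.53 ± 0.16, FDR 3.0e-06). Fbln5 and Ltbp2, which help to assemble elastin on microfibrils, rose from 88.1 ± 6.86 to 635 ± 47.9 CPM (2.93) and from 40.4 ± 6.34 to 319 ± 16.6 CPM (3.07), and Mfap5 rose by 3.79. Fbn2, the fetal fibrillin, fell from 407 ± 62.4 to 41.1 ± 2.16 CPM (-3.22 ± 0.26), while Fbn1 was at 0.71 (FDR 0.01). The crosslinking enzyme Lox fell from 674 ± 80.7 to 147 ± 13.8 CPM (-2.11) as elastin rose. The main fibrillar collagens Col1a1, Col1a2 and Col3a1 were at -0.3, 0.2 and 0.2 (FDR 0.089, 0.068 and 0.013). Cartilage markers fell, 7 of 9 tested, the sum going from between 151 and 174 to between 29.1 and 44.4 CPM, and Col11a1 (-3.38) fell with them; how much airway cartilage each library held was not tested.

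Basement membrane collagens changed by chain. Col4a3 and Col4a4, neighbours that face away from each other on chromosome 1 (82586921 to 82722059 on the plus strand and 82448423 to 82586849 on the minus strand), rose together, Col4a3 from 11.9, 12.2 and 7.98 CPM to 224, 189 and 194 CPM (log2 fold change 4.33 ± 0.17, FDR 1.4e-09) and Col4a4 from 48.7 ± 5.61 to 242 ± 21.7 CPM (2.4). Col4a5, the chain that joins them, was at 0.34 (FDR 0.0033), and Col4a6 fell (-1.36). Col18a1, the source of endostatin, fell from 578 ± 20.5 to 126 ± 9.28 CPM (-2.11), and Frem2, a fetal basement membrane protein, from 110 ± 11 to 19.8 ± 2.17 CPM (-2.38). The 11 laminin genes all stayed under the fold cutoff, from -0.99 (Lama1) to 0.98 (Lamb2), with 9 of them at an FDR under 0.05.

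Of 25 junction genes, 8 rose and 3 fell. Cldn6, a claudin of embryonic epithelium (chromosome 17, 23679249 to 23682446), was at 152, 153 and 163 CPM at E18.5 and at 3.07, 4.36 and 3.80 CPM at P5 (log2 fold change -5.3 ± 0.1, FDR 1.2e-11). Cdh3, P-cadherin, fell from 46.2 ± 3.75 to 4.55 ± 0.380 CPM (-3.26) and Cldn4 by 1.64. Cldn5, the endothelial claudin, rose from 101 ± 12.8 to 448 ± 15.6 CPM (2.24). Cdh1, the main epithelial cadherin, was at -0.21 (FDR 0.095) and Cldn3 at -0.05 (FDR 0.67).

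Signals of lung branching moved both ways. Of 30 Wnt pathway genes, 8 rose and 7 fell. Wnt3a was at 0.123, 0.421 and 0.0549 CPM before and 18.9, 18.3 and 18.2 CPM after birth (log2 fold change 6.61 ± 0.46, FDR 8.1e-08), whereas the epithelial ligand Wnt7b fell from 103 ± 7.63 to 18.8 ± 1.41 CPM (-2.37) and the mesenchymal Wnt2b by 2.28. Wnt2 was at 0.03 (FDR 0.76) and Axin2, a common readout of the pathway, at -0.16 (FDR 0.11). In the TGF-beta and BMP pathway 10 of 31 genes rose and 2 fell: Bmp6 rose from 4.22 ± 1.18 to 67.9 ± 3.36 CPM (4.1) and Inhbb by 3.3, while Bmp7 fell from 17.6 ± 2.68 to 2.03 ± 0.253 CPM (-3.02). Of 12 Hedgehog genes tested, 2 fell, Gli3 (-1.35) and Cdon (-1.26), with 10 lower at an FDR under 0.05. Among fibroblast growth factors Fgf9 fell (-2.37) and Fgf1 rose (1.8), and Fgf10 was at -0.4 (FDR 0.0045). In retinoic acid synthesis Aldh1a1 rose (2.36) while Aldh1a2 was at -0.73 (FDR 0.0025).

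Of 33 developmental transcription factors 5 rose and 7 fell. Foxp2, a repressor in distal epithelium, was at 139, 122 and 124 CPM before and 18.7, 20.2 and 19.8 CPM after birth (log2 fold change -2.63 ± 0.11, FDR 1.6e-09), and Tbx1 and Sox12 fell by 1.54 and 1.48. Hopx, of type 1 cells, rose from 22.9 ± 7.03 to 106 ± 3.99 CPM (2.3) and Cebpa, of AT2 cells and myeloid cells, by 1.47. Without E18.5 replicate 3, 3 members rose in place of 5.

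Of 21 glucocorticoid genes tested, 9 rose and 2 fell. Hsd11b1, which makes active glucocorticoid in the tissue, rose from 6.57 ± 3.50 to 55.3 ± 5.15 CPM (3.16), and the target Klf9 from 10.6 ± 1.88 to 42.0 ± 3.67 CPM (2.08). Other targets fell, Fkbp5 (-1.08) and Ddit4 (-1.68), and the receptor Nr3c1 was at 0.44 (FDR 5.0e-05). Of 19 circadian clock genes 8 rose and 0 fell, led by Nr1d1 (2.48) and Bhlhe41 (2.41), both repressors, followed by Nr1d2, from 14.5 ± 1.75 to 53.2 ± 0.477 CPM (1.97), and Per3 (1.51), with Clock at 0.35 and Cry1 at 0.02 (FDR 0.0012 and 0.75). The hour of collection is not given in the sources used here. Of 20 immediate-early genes, 9 rose and 3 fell, with 16 higher at an FDR under 0.05. Egr2 rose by 3.38 and Klf4 and Klf2, which flow induces in endothelium, by 2.34 and 2.12, while Egr3 fell by 1.99 and Myc from 40.9 ± 11.2 to 14.1 ± 0.534 CPM (-1.45).

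Embryonic globin genes fell and adult globin genes rose. The sum of the 4 adult globin genes was already 3962.2 to 4698.5 CPM at E18.5 and was 11778 to 19225 CPM at P5. The sum of the 3 embryonic globin genes was 41.4 to 74.8 CPM at E18.5 and 0.227 to 0.263 CPM at P5. The adult sum was thus already the larger before birth. Hbb-y, an embryonic beta-like globin, was at 56.1, 30.8 and 55.5 CPM at E18.5 and at 0.161, 0.227 and 0.247 CPM at P5 (log2 fold change -7.72 ± 0.48, FDR 3.7e-08). The embryonic alpha-like Hba-x was at 17.8, 9.30 and 14.7 CPM before birth, and all 3 P5 libraries together held 4 of its reads. The 4 adult globin genes rose, and P5 replicate 1 was the highest for each, as for Alas2, the haem synthesis enzyme of red cells, at 334, 159 and 154 CPM in the P5 libraries against 29.7 ± 5.14 CPM at E18.5 (2.96). Adult globin genes are near-identical pairs, and shared reads were not counted.

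Outside the lists, the widest rise among abundant genes was that of Scgb1a1, the club cell secretoglobin, at 12.3, 14.5 and 12.6 CPM before and 3241, 3597 and 3878 CPM after birth (log2 fold change 8.17 ± 0.11, FDR 3.3e-13), a fold of 288. Complement genes C7 (0.299 ± 0.0925 to 53.4 ± 2.09 CPM, 7.55) and Hc, which encodes C5 (2.5 ± 0.433 to 236 ± 49.1 CPM, 6.66), were among the 12 widest rises, as were S100g (7.46), a calcium-binding protein, and Spink5 (7.38), a protease inhibitor. Atp6v0d2, a subunit of the proton pump, and Mlc1 rose by 7.01 and 6.78. Kcne2 (6.65), a potassium channel subunit, Acoxl (6.18), Dpt (6.12), a matrix protein of fibroblasts, and Cp, the copper-carrying ferroxidase (2.58 ± 0.526 to 115 ± 0.384 CPM, 5.56), completed the rule, together with Car3, whose P5 values of 0.514, 11.1 and 73.4 CPM followed the brown fat and skeletal muscle sums and overlapped E18.5, and whose call was lost without P5 replicate 3 (3.52).

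The widest fall outside the lists was Adamts18, a matrix protease, from 35.1, 39.0 and 34.8 CPM to 0.578, 0.640 and 0.805 CPM (log2 fold change -5.66 ± 0.17, FDR 2.9e-10). Other falls were those of Vwa2 (-4.71), Emilin3 (-4.43), Scara5 (-3.74), the collagen-binding Fmod from 430 ± 44.0 to 39.8 ± 5.27 CPM (-3.35), Igsf9 (-3.35) and Smoc2 (-3.09). Igf2os, which lies antisense to Igf2, had a log2 fold change of -4.51; without known strandedness its reads and those of Igf2 cannot be told apart where they overlap. B4galnt4 (-4.62), Rassf10 (-3.22) and Dctd, of pyrimidine supply (-3.01), fell as well, and Ppp1r3b, which directs phosphatase to glycogen, fell from 218 ± 44.0 to 13.1 ± 0.737 CPM (-3.97 ± 0.24).

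In families taken by symbol, of 74 CD antigens 53 rose and 3 fell, of 30 interleukin receptors 18 rose and 0 fell, and of 18 serpins, which inhibit proteases, 13 rose and 0 fell. Of 28 integrins 14 rose and 2 fell, among them the leukocyte integrins Itgal and Itgb2 (3.81 and 4.33). Eph receptors and ephrins, which guide cells by contact, had 1 of 20 higher and 8 lower, Epha5 falling from 8.78 to 0.994 CPM (-3.05). Zinc finger proteins rarely passed the cutoffs, 8 of 363 higher and 23 lower, although 173 were lower at an FDR under 0.05. Of 267 solute carriers 74 rose and 17 fell.

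Splicing was measured by event, with other cutoffs and another set of features, so the shares of events are not set against those of genes. Each event is measured by its percent spliced in (PSI), the percent of reads that include an exon, retain an intron or use a splice site. The minimum value (MV) of an event is the difference in PSI that is exceeded with a probability of 0.95, given the read numbers, and an event was called at an MV of 10 points or more. An MV is not a p-value. Of 331318 events tested 166 were called, 0.0501% of them, 107 with higher and 59 with lower PSI at P5, in 134 genes. Exon events made up 115 of these (75 higher, 40 lower; 0.118% of exon events), retained introns 33 (24 higher, 9 lower; 0.034%), alternative acceptors 8 (0.00998%) and alternative donors 10 (0.0177%). Acceptors and donors are counted per site, so 1 choice can enter as both a rise and a fall. The acceptors of Tfpi, for example, moved by 36.5 and -36.5 points. Exons of 1 gene could also move by similar amounts in opposite directions, as in Actn1 (25.7 and -25.6 points) and Tpm1 (16.7 and -17.3 points). Whether such a pair is 1 choice was not tested, so rises and falls of exons are not all separate changes. PSI of the called events moved by a median of 27.7 points, on a median of 205 reads per event and library and at least 27. Of the 166, 52 share their gene with another called event. In expression, 19 of the 134 genes were also called higher and 6 lower. The shares over all genes tested were 17.5% and 9.34%, and neither count exceeds its share.

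The largest rise was an exon of Prickle1, a planar cell polarity protein, included at 14.7, 14.3 and 16.2% in the E18.5 libraries and at 71.7, 80.6 and 73.1% in the P5 libraries (MV 43 points), in a gene that also rose (1.26). An exon of Palm, a membrane protein of cell shape, went from 25.1 ± 6.04 to 78.4 ± 4.57% and an exon of Arhgap12 from 39.2 ± 5.30 to 90.4 ± 8.36%, in genes not called in expression (-0.39 and -0.24). Mical3 spread widely between libraries, at 10.3, 52.5 and 31.2% before and 71.9, 93.3 and 95.9% after birth. In Aspn (asporin), a small matrix proteoglycan that rose by 2.75, 7 exon events were called, all higher; the largest change was from 39.7, 32.0 and 19.1% to 88.1, 86.3 and 84.4%.

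Exons that were lost included 1 of Fn1 (fibronectin), from 63.4, 52.9 and 68.6% to 10.4, 13.5 and 12.9% (MV 36 points downward), with another going from 69.7 ± 5.41 to 42.5 ± 0.858%, in a gene that rose by 1.78. H2afy, which encodes the histone macroH2A1, lost an exon from 84.2 ± 4.12 to 43.4 ± 4.08%. Another exon of H2afy moved the other way, from 16.8 ± 5.77 to 61.0 ± 6.38% (MV 38 points). Arhgef2 went from 72.3 ± 5.24 to 25.4 ± 1.86%, Hdac7, an endothelial histone deacetylase, from 61.8 ± 6.73 to 25 ± 3.01%, and Myof, a membrane repair protein, from 92.0 ± 1.0 to 53.6 ± 7.45%. The exon of Col25a1 fell from 89.0 ± 13.3 to 39.6 ± 8.22% on as few as 33 reads in a library. Groups did not overlap for any called event, which largely follows from the call itself and is no further result. The share of all events tested without overlap is not given here.

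Among genes changed in both ways, Npnt (nephronectin), a basement membrane ligand of integrins, rose by 1.96 and gained an exon from 2.07, 1.45 and 2.72% to 47.8, 49.5 and 42.7% (MV 38 points). Vegfa gained an exon from 9.44 ± 1.32 to 45.6 ± 3.34% (MV 29 points). Plod2, a collagen lysine hydroxylase, fell in expression (-1.02, but -0.99 and under the fold cutoff without P5 replicate 1) and gained an exon from 45.1 ± 6.44 to 84.5 ± 4.36%, whereas Nasp, a histone chaperone of S phase, fell (-1.44) and lost an exon from 32.8 ± 1.86 to 6.03 ± 1.92%. For any called event, whether or not expression also moved, a change in the cells present and a change within cells cannot be told apart.

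Of the retained introns, an intron of Hps3, of lysosome-related organelles, was retained at 1.33, 0 and 1.54% before and 59.0, 51.8 and 69.0% after birth (MV 43 points), with the gene at 0.63 (FDR 4.2e-04). Hps3 overlaps Cp, which lies on the opposite strand and rose from 2.58 ± 0.526 to 115 ± 0.384 CPM, and strandedness is not given, so reads of these genes cannot be told apart where they overlap. Rapgef5 went from 31.4 ± 11.7 to 80.1 ± 5.47% as the gene rose (2.07), and Psd and BC055324 from 13.7 ± 4.43 to 50.7 ± 10% and from 13.8 ± 4.83 to 50.5 ± 7.10%. In the other direction an intron of Glipr1 went from 95.9 ± 2.19 to 46.4 ± 7.36%, as the gene rose by 2.34, and introns of Hvcn1, Srr and Ednrb fell from 61.7 ± 7.65 to 29.9 ± 3.74%, from 49.8 ± 6.97 to 22.8 ± 5.10% and from 58.3 ± 2.34 to 32.8 ± 5.54%. Of these, Hvcn1 shares 44.2% of its exonic bases with Tctn1, Srr 30% with Tsr1 and Smg6, Glipr1 22.8% with Krr1 and BC055324 18.6% with Scyl3, all on the opposite strand, and introns of Tctn1 and Tsr1 were themselves called higher, so these intron values are uncertain. Ednrb, the endothelin receptor B, shares 0% and was not called in expression (-0.44, FDR 8.6e-04).

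**Figure D5:**
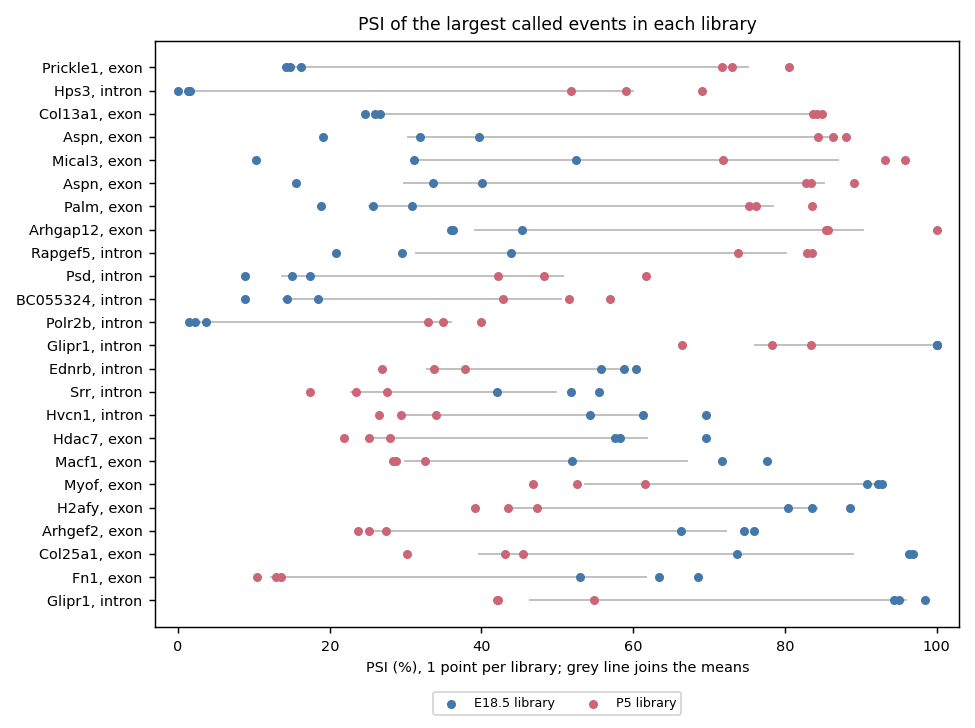
PSI in percent of 24 of the largest called splicing events in each library (E18.5 blue and P5 red, 3 points each), with a grey line joining the means and events ordered by the change. The Prickle1 exon lies at 14.3 to 16.2% at E18.5 and 71.7 to 80.6% at P5. For each event the 2 groups are apart, as the call largely requires.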

How the data were processed

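Whole-lung RNA-seq libraries of 4 time-points, 3 each, were used as deposited. Per the labels and the study's methods, the authors aligned reads with TopHat2 2.1.1 and Bowtie2 2.3.4 to mm10, with Gencode vM14 annotation, and deposited raw read counts per gene made with HTSeq 0.10.0, which leaves out reads at several sites or in overlapping genes. Strandedness is not given in the sources used here. The authors also deposited CPM, scaled to the mapped reads of each library, and PSI in percent per splicing event with its read numbers, from VAST-TOOLS. Of the CPM values above 0, 100% came out as whole reads within 0.01 reads, and the count test on those reads called 5425 genes. There were 0 columns of unmapped samples.

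Genes reaching 1 CPM in 3 or more of the 12 libraries were fitted in edgeR 4.0.16 (quasi-likelihood, TMM factors, R 4.3.3) with all 12 libraries sharing 1 estimate of spread, FDR by Benjamini-Hochberg, and cutoffs of FDR 0.05 and absolute log2 fold change 1. Log2 fold changes are given with SE and levels as mean ± SD. PSI was compared by simulated differences from the read numbers (2000 draws per library) over libraries matched by replicate number, a match the design does not make. The scripts were tested on simulated data. Exon overlap came from GENCODE vM21 and promoter letters from RefSeq. Opposite-strand genes also share 27.2% of the exonic bases of Hopx, 23.4% of Ccnd1 and 20.1% of Fbn1, so their reads are less certain. The members and gene lists were chosen with earlier results of these data known. Named genes were the called members with the widest changes of each list, up to 3 each way, and up to 3 uncalled members. Added to these were the 12 widest rises and falls outside the lists. The largest events were named from those called both with matched numbers and over all 9 pairs. Further genes named for their role were chosen after their values were seen. Alternatives were other scaling factors, no filter, DESeq2 1.42.0, the 6 libraries alone, the FDR alone, a replicate block, each library left out, and other event settings. A few members of the lists are not reported here by name.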

Additional observations from a re-analysis of the deposited data

How the results depend on the processing

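The count of 4289 genes was 4282 with DESeq2 size factors, 4363 by library size (2652 higher, 1711 lower), 4349 without the filter, 4327 with DESeq2, 4392 with the 6 libraries alone, 4097 to 4316 with each library left out, and 5425 on recovered reads of all genes in the CPM table, an alternative chosen after seeing the data. At an FDR alone it was 11369 (5660 higher, 5709 lower), with 10056 genes shared with E15.5 to P8 against 3762, and 1816 calls over the lists and families against 943. For events, 42 passed an MV of 20 points, against 166 at 10 points. Over all 9 pairs 147 events were called, and 130 of the 166 were among them. With a library left out, over all pairs of the others, 186 to 235 were called. Same-numbered libraries did not deviate together (r of -0.135, 0.029 and -0.08), so they share only a number, and the replicate block gave 4383 genes. The median log2 fold change of all genes was -0.071 by library size. Litter and stage cannot be told apart, and depth limits the genes with few reads before birth. Over the 255 genes named, 3498 values under the alternatives kept their direction and their side of the cutoffs, 58 crossed into a call, 13 lost one and 0 changed direction; an adjusted p that DESeq2 left undefined was not counted. The 24 events plotted stayed at an MV of 10 points or more in all 168 alternative values. The largest were taken only from events also called over all 9 pairs, so this record partly follows from the choice.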
